A study of Paracentrotus lividus with 54 samples.

Results

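Gastrula-only peaks are stretches of chromatin that were open in gastrulae of the sea urchin Paracentrotus lividus and that no peak list of another sampled stage covers, even by 1 base. They were found by overlap: a peak of the gastrula list was kept where it met no peak of the 16-cell, early blastula, prism or pluteus lists. The rule kept 20063 of the 154157 gastrula peaks, 13.0% (exact 95% interval 12.8 to 13.2%), out of 484062 peaks in the 5 distinct lists. Because these lists chose the members, their number, scores and gaps to other peaks are descriptions and carry no test.

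The study followed normal development of wild-type animals by ATAC-seq of whole embryos and larvae and by RNA-seq of staged embryos, larvae and adult tissues. ATAC-seq, which cuts accessible DNA with a transposase, was labelled for 2 samples at 16 cells, 6 at early blastula, 7 at late blastula, 7 at gastrula, 4 at prism and 2 at pluteus. All were labelled WT and untreated, and the gastrula samples differed in the number of nuclei used and, in one case, in a sucrose step. RNA-seq gave 1 library per stage, 17 in development (egg to pluteus) and 5 from adult tissues.

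Open chromatin marks DNA that transcription factors and other proteins can reach, chiefly promoters at gene starts and enhancers that lie farther away. During gastrulation in sea urchins the vegetal plate folds inwards to form the archenteron, the future gut, while mesenchyme cells move into the blastocoel and the skeletogenic cells among them begin the larval skeleton. Enhancers used in only some stages or tissues are a known feature of such development, and most of them lie in introns or between genes.

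Each stage had a single deposited peak list, so no replicate spread exists for a peak. The early and late blastula lists were identical, so the 2 blastula stages could not be separated and count as 1 list. Which blastula samples that list holds is not known, and no ATAC sample is labelled mesenchyme blastula. A member may therefore have been open already at a stage shortly before gastrula that no list represents. Absence from a list means that no peak passed the authors' caller there, and the number of peaks differed widely, from 30683 at 16 cells to 44711 at pluteus, 112026 at prism and 142485 at blastula. Only 1 peak of the 16-cell list, 143 of the pluteus list (0.320%) and 1759 of the prism list (1.57%) were found in that list alone, against 29852 of the blastula list (21.0%). Depth per ATAC sample is not known from the lists.

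The members were mostly low and narrow peaks near the bottom of the gastrula list. The authors' score has the form of an area. Divided by the width of the peak and scaled by a constant it gives, up to a cap, the list's other score. The lowest area score was 200. Among members the score ran from 200 to 3331 with a median of 272 and quartiles of 230 and 348, whereas the other 134094 gastrula peaks had a median of 809 and quartiles of 419 and 1948. Median width was 225 bp for members and 400 bp for the others, and median -log10 p at the summit was 4.72 and 6.90. Members therefore covered 5.30 Mb, 7.06% of the DNA under gastrula peaks. Low scores were not particular to gastrula. The median was 298 for blastula-only peaks against 778 for other blastula peaks, 258 against 628 for prism and 278 against 547 for pluteus. Median widths were 282 against 437 bp for blastula, 249 against 391 bp for prism and 297 against 435 bp for pluteus.

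The share of gastrula peaks that were members fell steadily with score. With the list cut by score into 10 bins of equal size, it was 47.1% in the lowest bin, 36.5% in the next, and then 23.8% and 13.4%. In bin 7 it was 0.623%, and the highest bin held 0 members. A total of 517 members (2.58%) scored above the list median of 662, and 93 reached 1000, a level reached by 57595 of the others (43.0%). The highest-scoring member ranked 19919 in the list.

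**Figure D1:**
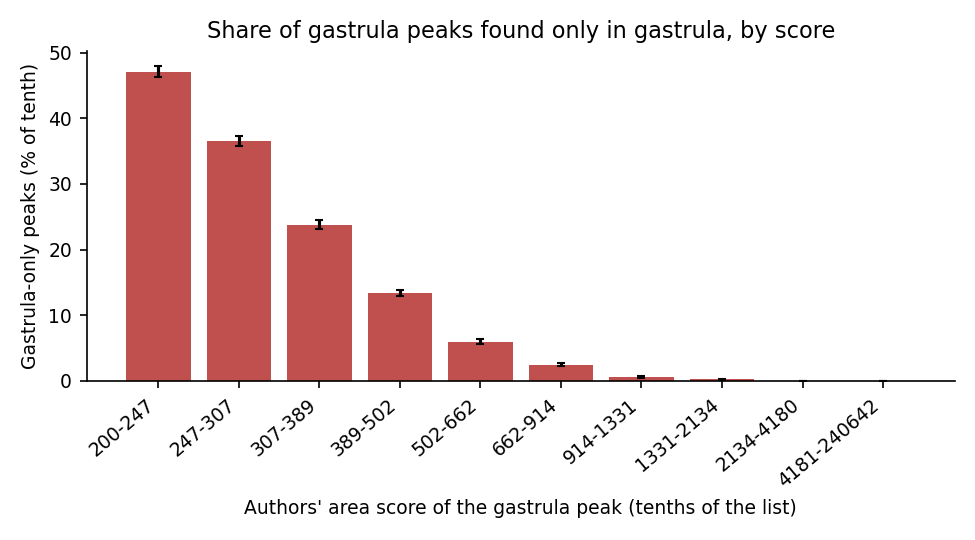
Bars give the percentage of gastrula peaks in each of 10 equal bins of the authors' area score (x axis, score range of the bin) that were found only in gastrula, with exact 95% intervals. The share falls from 47.1% in the lowest bin to 0 in the highest.

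Neighbouring stages removed most of the other gastrula peaks. Of all gastrula peaks, 113057 (73.3%) met a blastula peak, 106058 (68.8%) a prism peak, 40346 (26.2%) a pluteus peak and 28708 (18.6%) a 16-cell peak. The blastula list alone accounted for 26775 peaks that no other list touched, and the prism list alone for 15037. Leaving out the 16-cell or the pluteus list would have added 1 and 34 members. At the edge of the rule, the member at Scaffold_3428:8877518-8877932 (score 324) abuts a prism peak with a gap of 0 bp, and the member at 1:17682012-17682463 (score 297) lies 12 bp from a blastula peak. Just outside it, Scaffold_3429:28374157-28374486 (score 213) shared 1 base and Scaffold_3431:23985405-23985815 (score 252) shared 6 bases with a prism peak. Coordinates are 1-based and are those of the deposited lists, for which the labels name no genome build.

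Many members lay close to chromatin that was open at another stage. The nearest peak of any other list was at a median of 1195 bp, 6149 members (30.6%) had one within 500 bp, and 2939 (14.6%) had none within 5 kb. By list, the median gap was 1821 bp to a blastula peak, 1803 bp to a prism peak, 6846 bp to a pluteus peak and 13018 bp to a 16-cell peak, an order that follows the lengths of the lists except for blastula and prism. The prism-only peaks had a similar share within 500 bp of another list's peak, 31.5%, and the blastula-only peaks a lower one, 23.4%. Median score differed little between members with a near neighbour (270), at intermediate gaps (275) and over 5 kb away (268).

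The strongest members had no shared class of position. The highest score, 3331, belonged to Scaffold_2100:53705141-53706501, an intergenic peak 1361 bp wide, 7928 bp from the start of the nearest gene model and 1404 bp from the nearest blastula peak. Next came an exonic peak at Scaffold_218:21391600-21392760 (score 2840), with a blastula peak 345 bp away and a prism peak 386 bp away. An intergenic peak at Scaffold_3431:10064397-10064820 (score 2363) was 42105 bp from a gene start and 4617 bp from the nearest peak of another list. Intronic peaks at Scaffold_2974:24304974-24305383 (score 2117) and Scaffold_3425:36660409-36661182 (score 2000) followed. The highest-scoring member at a gene start, Scaffold_3425:23185717-23186351, scored 1547 with its summit 634 bp from that start.

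Compared with the other gastrula peaks, members were less often at gene starts and more often in exons. Positions were taken from the summit and the gene models of the deposited count table, which gives exon coordinates and gene IDs without gene names. They cover the 17540 members and 117916 other peaks on scaffolds that carry gene models. A summit within 1 kb of a gene start was found for 1602 members, 9.13% (8.71 to 9.57), against 12.5% (12.3 to 12.7) of the others. Exons held 1110 members, 6.33% (5.97 to 6.70), against 3.92% (3.81 to 4.04). Introns held 7147 members (40.7% against 37.1%) and intergenic DNA 7681 (43.8% against 46.5%). These intervals cover counting error only, and neighbouring peaks are not independent. Peaks found only in blastula or only in prism differed from the rest of their lists in the same directions. Gene starts held 7.02% of blastula-only and 13.1% of other blastula peaks, and exons 10.2% and 3.86%. For prism the start shares were 10.9% and 13.9%, and the exon shares 5.46% and 3.75%.

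Among low-scoring peaks of like score the gene-start difference was small or turned, and the exon difference was present. With the list cut by score into 5 bins, the 3 lowest held all but 118 of these members. In them, 9.01% of members and 8.15% of other peaks lay at a gene start in the lowest bin, 9.31% and 9.09% in the next, and 9.31% and 9.64% in the middle one. For exons the shares in these bins were 6.20% and 4.89%, 6.60% and 4.45%, and 6.33% and 4.03%. In bin 4, 7 of 115 members were exonic, 6.09% (2.48 to 12.1), an interval that holds the 3.33% of the others, and 12.2% against 11.8% lay at starts. The highest bin had 3 members, of which 0 lay at a start, against 21.3% of the others there.

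Within 1 kb of a start, members were spread more widely. Their median distance from the start was 404 bp against 296 bp for the others, and 29.2% (26.9 to 31.4) lay within 200 bp against 34.9% (34.2 to 35.7). Upstream summits made up 46.6% of member start peaks and 42.9% of the others. Over all members the median distance to the nearest gene start was 9860 bp (9625 to 10115) against 8518 bp (8435 to 8597), and 5.22% against 4.24% lay beyond 50 kb. Most of that gap in the medians was absent in the lowest of the 5 score bins, with 9641 bp for its 11269 members and 9335 bp for the others, and it was wider in the next bins, at 9950 against 9135 bp and 11846 against 9090 bp. Among intronic summits in genes with more than 1 intron, the first intron held 29.2% of members and 28.8% of the others.

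**Figure D2:**
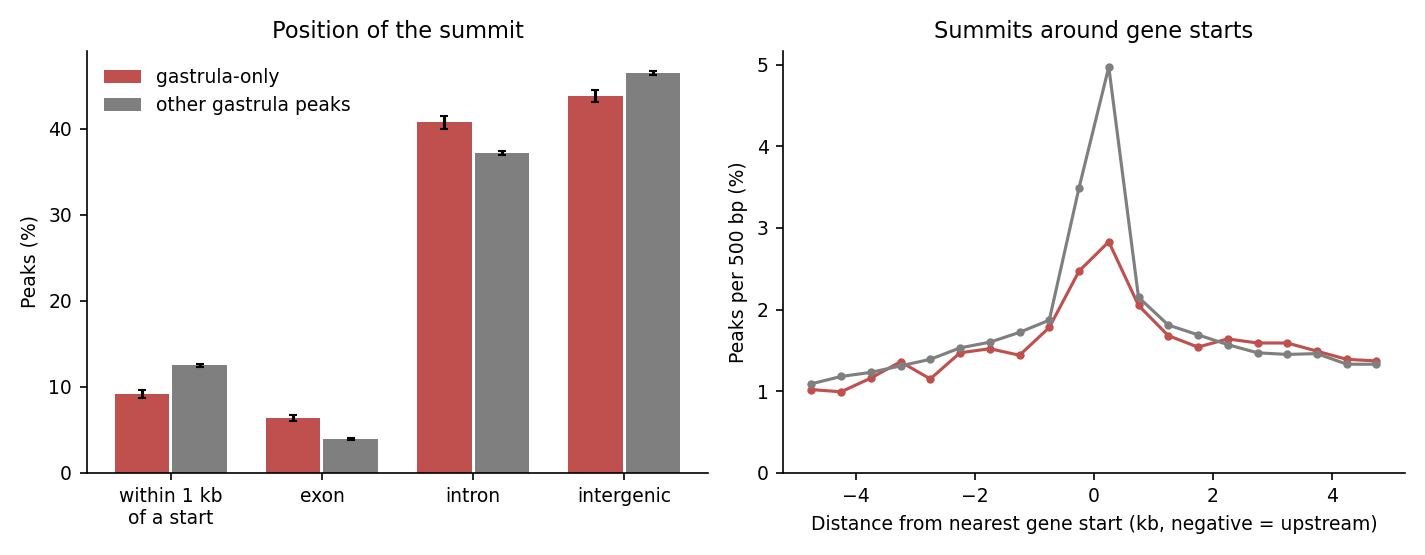
Left, percentage of gastrula-only and of other gastrula peaks by summit position, with exact 95% intervals. Right, percentage of summits per 500 bp by distance from the nearest gene start in kb: the central rise reaches 2.83% for gastrula-only peaks and 4.97% for the others.

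Position also varied with the gap to other stages' peaks. Members within 500 bp of another list's peak lay at gene starts in 12.9% of cases and in exons in 4.44%. At gaps of 500 bp to 5 kb the shares were 7.28% and 6.89%, and beyond 5 kb they were 8.34% and 8.14%. The exon share was thus highest where no other list had a peak nearby.

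Members tended to stand next to each other. A member was followed on its scaffold by another member in 18.5% of cases (18.0 to 19.1), and another gastrula peak was followed by a member in 12.2% (12.1 to 12.4). Score was not held equal in this comparison, and the intervals treat neighbouring peaks as independent, which they are not. Most members, 13529, still stood alone among shared peaks, and 633 runs of 3 or more held 2074 members (10.3%). The longest run, 9 members with no shared gastrula peak between them, spanned Scaffold_2100:30137458-30156369. On the 19 scaffolds with at least 2000 gastrula peaks, members made up 11.3 to 15.6% of the peaks.

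The densest 100 kb of members lay almost wholly over 1 gene. On Scaffold_2974, 28 of 54 gastrula peaks with summits from 45759819 to 45840497 were members (51.9%), 26 of them intronic and 2 exonic. Of these 28, 27 lay in PL29763 and 1 in an intron of PL28950 alone, a plus-strand gene model (Scaffold_2974:45742684-45762092) whose end overlaps that of PL29763. One of the 27, an exonic member, lay in both, and reads from that overlap may not be told apart between the genes. PL29763 (minus strand, Scaffold_2974:45761798-45853979, 20 exon records) held more members than any other gene model, 27 of its 56 gastrula peaks (48.2%). Its members scored 203 to 1951 with a median of 516, above the median of 272 for all members. Gastrula peaks covered 54.2% of the gene, against 27.7% for prism, 11.6% for pluteus, 5.80% for blastula and 0.821% for 16-cell peaks. The gene was picked for its gastrula-only peaks, so its larger coverage in gastrula follows at least partly from that choice. The next genes were PL11635, with 23 members among 67 gastrula peaks, and PL15251, with 21 among 71. Both are longer than PL29763, at 171050 and 207215 bp against 92182 bp.

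**Figure D3:**
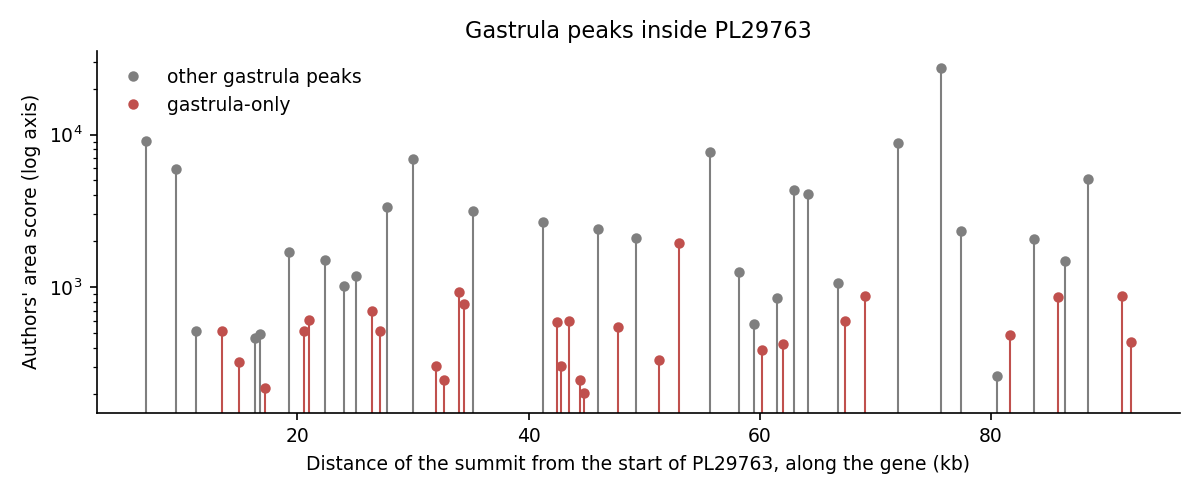
Each line is a gastrula peak inside PL29763, placed by the distance of its summit from the gene start along the gene (kb), with height giving the authors' area score on a log axis. The 27 gastrula-only peaks lie among the 29 shared ones along the gene and reach a score of 1951.

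RNA of PL29763 was low in blastulae and high from the mesenchyme blastula onwards. It was counted at 82.4, 29.8 and 37.1 CPM (counts scaled to a common library total) in blastulae at 6.5, 7.5 and 12 h, 735 and 811 CPM in early and late mesenchyme blastulae, and 1518 and 2254 CPM in early and late gastrulae. Prism and pluteus had 1458 and 1074 CPM, and the egg had 42.0 CPM. Both gastrula libraries lay above every blastula library. The log2 difference between gastrula and blastula was 5.15 (SE 0.479, edgeR quasi-likelihood test, adjusted p = 0.000571), and it stayed past the threshold in all 10 alternative fits. Against the larva the log2 difference was -0.42 (SE 0.760, edgeR adjusted p = 0.847).

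To ask how RNA behaved at genes that carry members, gene models were sorted by their gastrula peaks. Of 30670 gene models on scaffolds with peaks, 891 (2.91%) had a member as their sole gastrula peak within 1 kb of the start, 706 had both a member and a shared peak there, 12087 (39.4%) had shared peaks alone and 16986 had none. Across the classes without a start member, 4491 genes had members inside. Those 4491 genes were long, with a median span of 26457 bp against 6418 bp over all models. Libraries held 21124768 to 24069560 counts in the fit of blastula (3 libraries), mesenchyme blastula (2) and gastrula (2). Replicates here are neighbouring stages of 1 period, so p-values measure the spread between these libraries, drift between stages included. In whole embryos, fewer cells of a type and less RNA per cell cannot be told apart.

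Genes with a member as their sole start peak were more often higher and less often lower in gastrula than tested genes in general. Of the 21233 genes tested, 2812 were higher in gastrula than in blastula, 13.2%, and 2480 were lower, 11.7% (edgeR quasi-likelihood test, adjusted p under 0.05). Among the 578 tested genes with a sole member at the start, 105 were higher, 18.2% (15.1 to 21.6), and 49 were lower, 8.48%. Their median log2 difference was 0.21, against 0.00 over all genes tested. Genes with a shared start peak had 14.8% higher and 12.4% lower, and genes with no start peak 10.9% and 11.3%. The 594 genes with both kinds of start peak had 16.5% higher and 10.6% lower. No set test was made, and most genes with a member at the start passed neither call.

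Blastula-only peaks, chosen by the same rule from the blastula list, gave the opposite split in the fit of all 7 libraries. Of 725 tested genes with a blastula-only peak as their sole blastula peak at the start, 71 were higher in gastrula (9.79%) and 94 lower (13.0%), with a median log2 difference of -0.20. Without the late gastrula library the class median was -0.37, against -0.10 over all genes, and without the early gastrula -0.26 against -0.02. In those fits higher and lower calls in the class were near equal in number, where over all genes more were higher. Without the blastula at 7.5 h 5.42% of 701 genes were higher and 7.13% lower, against 6.81% and 5.24% over all genes. Without the swimming blastula 16.4% of 702 were higher and 18.8% lower, against 21.1% and 18.4%. Without any test, library separation gave a like picture: in 34.8% of the 578 genes both gastrula libraries lay above all blastula libraries, and in 19.4% below, where all genes tested gave 30.5% and 23.5%.

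Genes with many members inside, or with a member in an exon, had larger shares of higher genes still. Of 237 tested genes with at least 5 members inside, 62 were higher (26.2%) and 23 lower (9.70%), with a median log2 difference of 0.39. The higher share was 14.3% without the blastula at 7.5 h and 34.2% without the swimming blastula, where all genes gave 6.81% and 21.1%. Leaving out 1 library moved the median between 0.24 and 0.67. It was 0.49 without the early gastrula and 0.28 without the late gastrula, against -0.02 and -0.10 over all genes. Without the swimming blastula 19.4% were lower, above the 18.4% over all genes. For 180 genes with at least 10 gastrula peaks inside but no member, 18.3% were higher and 10.6% lower. Their higher share was 10.1% without the blastula at 7.5 h and 26.1% without the swimming blastula. The first set is longer, with a median span of 89104 bp against 47521 bp, and the part of length in this was not tested. An exonic member was present in 847 tested genes, of which 179 were higher (21.1%) and 84 lower (9.92%). Of 2744 genes whose exonic gastrula peaks were all shared, 15.2% were higher and 12.7% lower. Without the blastula at 7.5 h the higher shares were 10.7% with an exonic member, 9.31% with shared exonic peaks and 6.81% over all genes. Without the swimming blastula they were 29.6%, 24.2% and 21.1%. Median log2 differences in that order were 0.38, 0.10 and -0.02 without the early gastrula. Without the late gastrula they were 0.17, -0.04 and -0.10.

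The wider class with members inside and none at the start showed a smaller difference. Of 3802 tested genes 649 were higher (17.1%) and 437 lower (11.5%), with a median log2 difference of 0.13. Between 10 and 50 kb of span the shares were 16.4% and 11.7%, against 13.5% and 14.1% for genes of that span whose gastrula peaks were all shared. Taking each peak's nearest gene start instead, 17.9% of members and 15.4% of other gastrula peaks had a nearest gene that was higher. For 9.99% and 11.2% that gene was lower. These are shares of the 12657 members and 81726 other peaks whose nearest gene was tested. A gene near several peaks counts once for each of them, so the shares do not describe independent genes.

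The number of calls rested heavily on single libraries. Over all genes, 1384 were higher and 759 lower without the early gastrula library, 1011 and 512 without the late gastrula, 1405 and 1080 without the blastula at 7.5 h, and 4371 and 3814 without the swimming blastula. In those 4 fits, 7.82%, 7.21%, 10.1% and 25.0% of genes with a sole member at the start were higher, where all genes gave 6.00%, 4.48%, 6.81% and 21.1%. In each of the 10 alternative fits, the higher share in that class exceeded the share over all genes, and the lower share was below it. Against genes with a shared start peak the excess was smaller. Without the swimming blastula 25.0% of the class and 23.4% of those genes were higher. Without the low-count filter the shares were 13.8% and 12.6%, and without the blastula at 7.5 h 10.1% and 7.65%. With DESeq2 they were 21.3% and 17.1%.

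**Figure D4:**
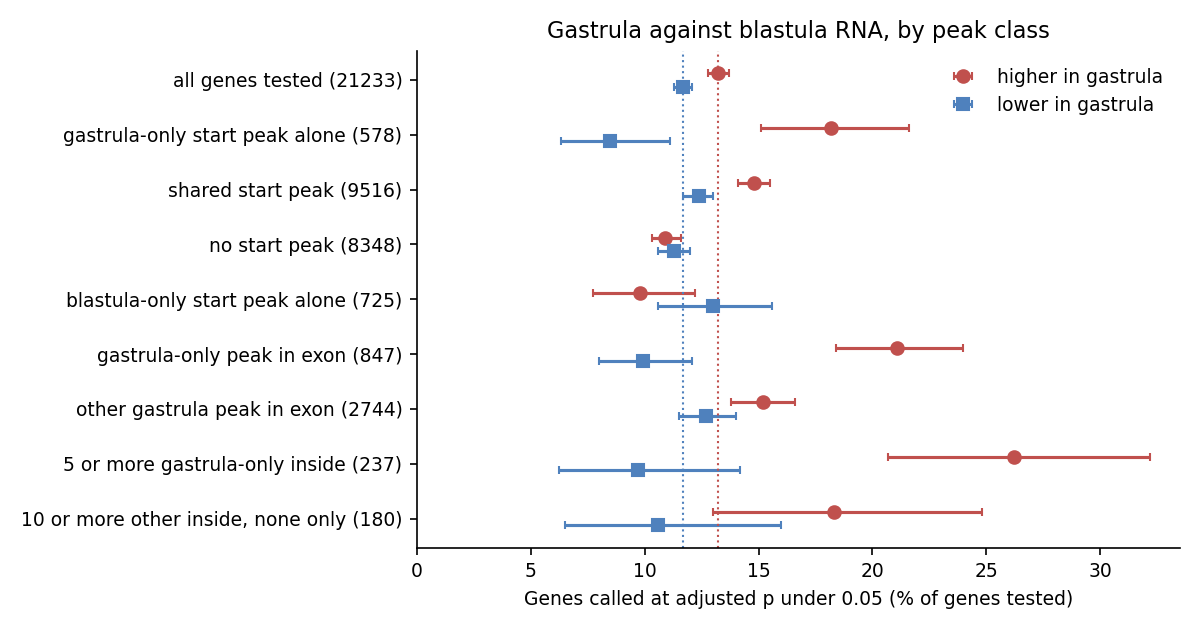
Percentage of tested genes called higher (circles) or lower (squares) in gastrula than in blastula for each class of gene (number tested in brackets), with exact 95% intervals and dotted lines at the shares over all genes. Genes with at least 5 gastrula-only peaks inside reach 26.2% higher, and genes with a sole blastula-only start peak have 9.79%.

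Of 62 eligible genes higher in gastrula and 25 lower, those with the most extreme log2 differences are described. To be eligible, a gene needed a sole member at the start, a call and a level of 20 CPM or more somewhere among the 7 libraries. Its gastrula values also had to lie entirely outside the range of the blastula values. Genes outside the class were not put through this rule, so 62 and 25 have no share over all genes beside them.

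PL13358 was near absent in blastulae and had reached its gastrula level by the mesenchyme blastula. It had 0, 0 and 0.166 CPM in blastulae at 6.5, 7.5 and 12 h, 52.4 and 56.8 CPM in mesenchyme blastulae and 60.2 and 48.1 CPM in gastrulae, with 29.5 CPM at prism and 43.5 CPM at pluteus. The gastrula and mesenchyme blastula values overlap, and both lie far above the blastula. The fitted log2 difference was 9.66 (SE 0.819, edgeR adjusted p = 0.0004), against a blastula level that rests on 4 counts in 1 library. Its start member, Scaffold_3434:2558499-2558722, is a weak one, scoring 225 with its summit 904 bp upstream, and the nearest blastula and prism peaks lie 1843 and 1864 bp away.

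PL39262 was also near absent in blastulae, and its highest library was the pluteus. Its RNA was 0, 0 and 0.499 CPM in blastulae, 27.5 and 38.2 CPM in mesenchyme blastulae, 66.6 and 64.4 CPM in gastrulae, 21.0 CPM at prism and 84.2 CPM at pluteus. Gastrulae lay above mesenchyme blastulae without overlap. The log2 difference from blastula was 8.42 (SE 1.05, edgeR adjusted p = 0.00148), with the blastula level resting on 12 counts in 1 library. The member at Scaffold_3426:40659704-40660048 scored 517 and put its summit 14 bp from the start. The nearest peak of another list, a blastula peak, lay 9035 bp away.

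PL30353 went the other way although its only start peak was found in gastrula. Its RNA was 93.5, 49.4 and 8.39 CPM in blastulae, 2.22 and 2.27 CPM in mesenchyme blastulae, 1.29 and 1.18 CPM in gastrulae, 0 at prism and 3.17 CPM at pluteus. The log2 difference was -5.39 (SE 0.951, edgeR adjusted p = 0.00533), past the threshold in 8 of 10 alternative fits. Its member, Scaffold_2974:11563963-11564249, scored 285 with the summit 329 bp downstream of the start, 8783 bp from the nearest prism peak.

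PL30558 was highest in the egg, at 378 CPM, and declined to 51.3, 16.9 and 4.82 CPM in blastulae. Mesenchyme blastulae had 1.15 and 0.379 CPM and gastrulae 0.829 and 0.546 CPM. The log2 difference was -5.17 (SE 1.08, edgeR adjusted p = 0.0103), again past the threshold in 8 of 10 alternatives. Its start member, Scaffold_2974:37640738-37640873, scored 262 and lay 428 bp upstream. Because the rule took genes from both ends of the log2 differences, RNA changes in both directions among these genes follow from the choice.

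**Figure D5:**
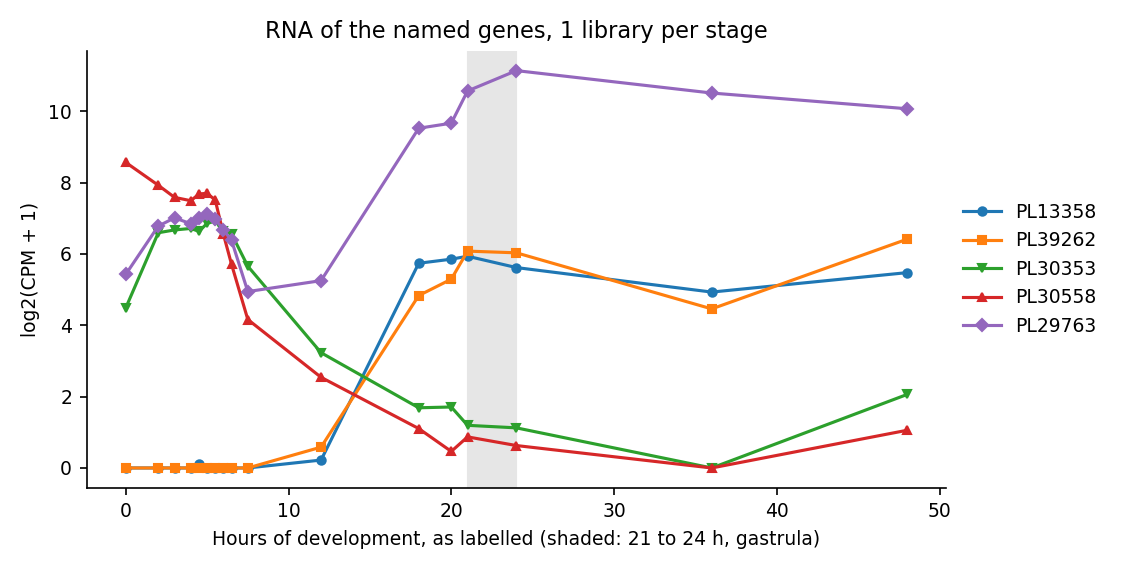
RNA of the 5 named genes by labelled hours of development, as log2(CPM + 1), with 1 library per stage and the gastrula stages (21 and 24 h) shaded. PL13358, PL39262 and PL29763 are higher in both gastrula libraries than in all 3 blastula libraries, and PL30353 and PL30558 are lower.

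Gastrula and a larva group that joined prism and pluteus differed by few edgeR calls, so the end of the gastrula window could hardly be followed in that fit. Of 22173 genes tested, 12 were higher in gastrula than in larva, 0.0541%, and 140 were lower, 0.631% (edgeR adjusted p under 0.05). Among 613 tested genes with a sole member at the start, 0 were higher and 0 lower, with 23 and 37 at an unadjusted edgeR p under 0.05, and DESeq2 called 2 higher and 21 lower. Over all 22173 genes the unadjusted counts were 877 and 1876, so that 9.79% of the class and 12.4% of all genes passed, and DESeq2 called 150 higher and 1248 lower. The larva group joined prism and pluteus, and the prism library stood apart: its 100 most abundant genes took 49.4% of its counts, against 24.6 to 33.4% in the blastula to gastrula and pluteus libraries. Over all genes the median log2 difference between gastrula and larva was 0.10 with both larva and both gastrula libraries. It was 0.89 without the pluteus library and -0.02 without the prism library. Without the early gastrula library it was 0.07, and without the late gastrula 0.00. The number of calls also moved widely with the library left out. Few calls in the joined fit therefore do not show that gastrula and larva RNA were alike.

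Genes with a sole member at the start were not mostly genes with their highest RNA in gastrula. Of 690 such genes, 88 had a gastrula library as the highest of the 17 developmental libraries, 12.8% (10.4 to 15.5), against 2234 of 22416 genes (9.97%) overall. For 203 (29.4%) the highest library was a larva, as for 31.1% of all genes. Without the prism library the shares were 16.8% and 14.1%, and with scaling by library size alone 18.1% and 15.3%.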

How the data were processed

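ATAC-seq peaks came as 1 list per stage. Per the submitters' processing notes the tools were Bowtie2 2.4.1 and Genrich for ATAC-seq, and STAR 2.5.2b and featureCounts 1.6.1 for RNA-seq. Genome build, filters and peak-calling options are not given in the sources used here. The deposited score per peak has the form of an area (tested on the file against width and the list's other score), and the deposited -log10 p is the value at the summit. Values in the authors' count table are raw counts per gene, counted with strand option 1 per the file headers. All counts were even in 21 of 22 libraries, and whether the option matched the library kit was not settled. The 4 CUT&Tag samples were not analysed here.

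Overlaps, gaps and positions were computed in Python 3.11.15 with pandas 2.3.3. Summits were placed as at a start (within 1 kb), exon, intron or intergenic, in that order. Gene counts were tested with edgeR 4.0.16 (filterByExpr, TMM, glmQLFit, glmQLFTest, Benjamini-Hochberg over all genes tested), with DESeq2 1.42.0 as an alternative, after a test on simulated data. Shares carry exact (Clopper-Pearson) 95% intervals, which cover counting error only. CPM are counts scaled to a common library total. The SE given for a log2 difference is its absolute value divided by the square root of the edgeR F statistic, and is approximate. Library totals ran from 14657193 to 36305776 counts. The 17540 members on scaffolds with gene models were used for positions. The genes named are the 2 highest and 2 lowest log2 differences among eligible genes with a sole member at the start, and the gene with most members inside. Members, gene classes and lists were chosen with earlier results of these data known, and the comparison classes (exonic shared peaks, at least 10 peaks without a member, blastula-only starts) were added after the members' values were seen. Alternatives covered overlap, score, lists left out, window, scaling, test, filter, libraries and scaffold names.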

Additional observations from a re-analysis of the deposited data

Results flagged for a closer look

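A total of 2523 gastrula-only peaks (12.6%) lay on scaffolds that carry no gene model in the count table, and they enter no position or gene class. Among the other gastrula peaks the share was 12.1%. Of these members, 2170 lie on a scaffold named 1 in the peak lists, whose last gastrula peak ends at 80426019. The count table has no scaffold of that name, and its Scaffold_174, with 2845 gene models ending at 80432753, has 0 peaks in any list. With the names read as the same scaffold, 11.9% of its gastrula peaks lay at a gene start, against 10.9 to 14.6% on the other large scaffolds. Whether the names denote 1 scaffold was not settled.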

How the results depend on the processing

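The number of gastrula-only peaks, 20063, was 517 among peaks above the median score, 1075 with equal numbers of top peaks per list, 46838 without the blastula list and 35100 without the prism list. Over the same settings in that order, and then with a 500 bp margin, the member to other median score ratio (0.337) was 0.468, 0.575, 0.264, 0.380 and 0.361. The start share was 10.8%, 13.0%, 8.18%, 9.97% and 7.5%, and 5.30% or 15.3% with a window of 500 bp or 2 kb. Intron shares were 43.5%, 38.6% and 39.7% for the first 3, and median distances 10804, 9278 and 9528 bp, with 10520 bp for the margin. Calls between gastrula and blastula (5292) were 2387 with the larva libraries in the fit and 1523 to 8185 leaving out 1 library. Calls among genes with a sole member at the start were 79 and 55 to 223, and 11 with only peaks above the median score. For genes with members inside they were 525, 337 to 1669 and 61. None of the 154 start-class calls turned direction in any of the 10 fits, which reuse the main fit's libraries and so could hardly show a reversal. Many calls were lost in some fits. With the larva libraries 63 of 105 higher and 12 of 49 lower calls remained. Without the blastula at 7.5 h 57 and 17 remained, and with DESeq2 all did. Calls between gastrula and larva (152) were 1 by library size, 1398 by DESeq2, 930 unfiltered, 249 with halved counts, 1039 with 17 libraries and 0 to 4208 leaving out 1. In the start class these were 23 by DESeq2, 12 unfiltered, 1 halved, 13 with 17 libraries, 1 with a 2 kb window and 0 to 103. The share highest in gastrula was 18.1% by library size, 16.8% without prism and 18.4% for peaks above the median score. The causes were not tested. Reading scaffold 1 as Scaffold_174 was chosen after seeing the data. No paired analysis was possible because each stage has 1 library and the numbers link no animals.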
